A study of Mus musculus with 8 samples.

Results

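The genes of the COPII coat, the protein shell that buds transport vesicles from the endoplasmic reticulum (ER), were read in 8 single myocardial cells of the mouse embryo. The group held 10 genes, Sec31a, Sec13, Sec23a, Sec23b, Sec24a, Sec24b, Sec24c, Sec24d, Sar1a and Sar1b, of the 24336 gene names on the array. Every probe of the array that carried a member's name was read, which gave 14 of 55681 probes. Sec31a entered the group because its signal was lost in mutant cells on these same arrays, so its difference between genotypes is given as a description. The other 9 genes entered by name, as subunits of the same coat.

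The study addressed whether loss of Sox17, which encodes a transcription factor of endoderm and endothelial precursors, in early mesoderm changes the transcripts of heart cells. Each array held the amplified cDNA of 1 cell picked from a trypsin-dissociated heart tube at embryonic day 8.5, the 9-somite stage. There were 4 cells labelled Mesp1+/+_Sox17flox/flox (WT) and 4 cells labelled Mesp1Cre/+_Sox17flox/flox (KO), all myocardium by their label. The labels describe the parents as Mesp1Cre/+ males and Sox17flox/flox females, a cross that gives Sox17flox/flox embryos only where the male carries a floxed allele as well, and the genotypes are used here as labelled. By these labels both genotypes carried floxed Sox17, and they differed by Mesp1Cre, which stands in place of a Mesp1 allele. The Cre acts in early mesoderm, so the deletion is not limited to the myocardium, and genotypes were read from embryo tails.

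The labels named no embryo or litter for any cell. Each genotype was treated as 1 sample of 4 cells, no test was made, and an SD is the spread between cells. The WT arrays shared 1 slide and the KO arrays a different slide, and the effects of slide and genotype cannot be told apart. All 11 myocardial markers were well above background in all 8 cells, although the study had itself identified cells by PCR of markers, so this check is not independent. Their summed signal was 607582.3 to 1013804.1 in WT and 717159.2 to 1061665.5 in KO cells. Of 13 endothelial markers, 3 to 4 were detected per WT cell and 2 to 4 per KO cell, with summed signals of 1124.8 to 4909.4 and 1048.2 to 2481.1. Each cell had 0 to 1 of 7 erythroid, of 7 endoderm, of 5 proepicardial and of 4 neural crest markers, and the erythroid and endoderm markers were at the floor throughout. Both Sox17 probes and the Mesp1 probe were detected in 0 of 8 cells, so the deleted gene could not be checked.

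COPII vesicles carry newly made secreted and membrane proteins from the ER towards the Golgi. Assembly starts when the small GTPase Sar1, made from Sar1a or Sar1b, binds GTP and inserts into the ER membrane. Sar1 recruits the inner coat, a pair of one Sec23 and one Sec24 protein, in which Sec23 speeds GTP hydrolysis by Sar1 and Sec24 binds the cargo. The outer coat of Sec13 and Sec31 then forms the cage that bends the membrane. Sec13 also belongs to the nuclear pore scaffold and to the GATOR2 complex, which acts on nutrient signalling.

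Signals below are processed spot intensities, scaled so that the 50th percentile of the probes detected in all 8 cells is equal on all arrays, with values under 50 set to 50. That value is called the floor. Cells at the floor have no order among themselves, and a fold against the floor is set in part by it. Detection means that the scanner software flagged the spot of a probe as well above background in that cell, which for dim spots can happen under the floor. Values are given in the order of cells 1 to 4 of a genotype. Levels were compared between cells for 1 probe at a time, never between probes.

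The probes are 60-base oligonucleotides. Those of Sec31a, Sec13, Sar1a and Sec24c are the ones on which most of the readings turn, and the first 30 bases of each are shown as the array files give them, 5′ to 3′. No exon or UTR annotation of these positions was used here. Positions are in mouse build mm9. Both Sec31a probes lie on the minus strand of chromosome 5, at chr5:100790759-100790818 for probe 1 and chr5:100792875-100792934 for probe 2. Between them lie 2056 bases, and probe 1 is the further downstream along the gene's strand.
Sec31a probe 1: gggattctgactaatgtggtttttaaaact
Sec31a probe 2: taagaaacctattccggaggagcacctcat
Sec13: agttgtgcctggaagccttatagaccaacc
Sar1a probe 1: gtgtcctgtttcagcaaaagtaaaactgtc
Sar1a probe 2: gttgagcttaatgctttaatgactgatgaa
Sec24c: caggatgcccctgctatggacctttcattt

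In the outer coat, Sec31a signal was bright in every WT cell on probe 1 and at the floor in every KO cell on both probes. Sec31a is the main Sec31 protein of most cells and carries the rod of the cage. Probe 1 read 6011.4, 8628.2, 4605.9 and 2022.0 in WT, and 50 in each KO cell. Before the floor was set, the KO cells read 1.2, 2.9, 2.6 and 2.1. The KO cells thus lay far under the dimmest WT cell, and the probe was detected in 4 of 4 WT and 0 of 4 KO cells. The mean log2 signal was 12.20 ± 0.89 in WT (SD between cells, n = 4) and 5.64 in KO cells, at least 93.8-fold lower. A pattern of 4 WT and 0 KO cells was found for 59 probes, 0.106% of all 55681. As the gene was selected on this contrast, nothing is read from that share.

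Sec31a probe 2 read 1076.8, 822.6, 50 and 683.4 in WT, and 50 in each KO cell. It was detected in all 4 WT cells, with WT cell 3 under the floor at 16, and in KO cell 4, also under the floor at 34.1. The genotypes overlapped on this probe, with WT cell 3 at the floor together with the KO cells. Before the floor was set, KO cell 4 also lay above WT cell 3. The mean log2 signal was 8.70 ± 2.06 in WT and 5.64 in KO cells, a difference of -3.06. The paralogue Sec31b, which can take the place of Sec31a in the cage and is not among the 10 genes, was detected in 0 of 4 WT cells and in KO cell 4, at 183.8.

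Sec13, the partner of Sec31a in the cage (minus strand of chr6:113680810-113680869), was detected in 4 of 4 WT and 3 of 4 KO cells. It read 340.0, 294.3, 635.3 and 382.2 in WT, and 1126.8, 193.8, 50 and 105.6 in KO cells. KO cell 1 exceeded every WT cell and the other KO cells lay under every WT cell. KO cell 3 had no detection. The WT cells were close together, at 8.63 ± 0.48 on the log2 scale, and the KO cells spread more widely, at 7.53 ± 1.92. The difference of -1.10 was smaller than the pooled SD of 1.40.

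**Figure D1:**
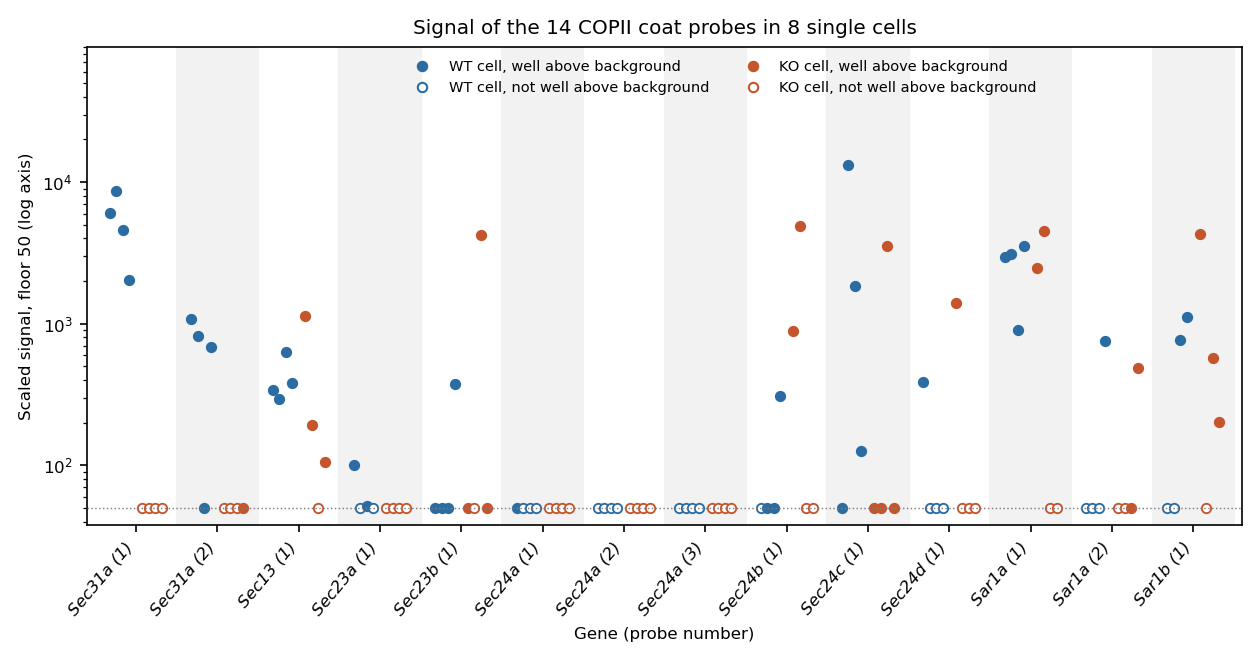
Scaled signal (log axis, floor of 50 as a dotted line) of each of the 14 COPII coat probes in WT cells (blue) and KO cells (orange), with filled points for cells in which the probe was well above background and open points for the rest. Cells of a probe are drawn in the order WT 1 to 4 and KO 1 to 4. Only for Sec31a probe 1 do all 4 WT cells, at 2022.0 to 8628.2, lie above all 4 KO cells, and Sec31a was selected on this contrast.

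Of the Sar1 GTPases, Sar1a was bright in all WT cells and in some KO cells. Sar1a probe 1 (plus strand of chr10:61155962-61156021) read 2935.2, 3124.5, 908.4 and 3530.2 in WT, and 2464.4, 4543.8, 50 and 50 in KO cells. KO cells 1 and 2 lay within or above the WT range, and KO cells 3 and 4 had no detection. The mean log2 signal was 11.19 ± 0.91 in WT and 8.68 ± 3.52 in KO cells. The difference of -2.51, or 5.69-fold, was smaller than the pooled SD of 2.57, and it ranged from -3.67 to -1.50 with 1 cell left out.

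The other Sar1a probe has no position in the files. It was detected in WT cell 4, at 757.0, in KO cell 4, at 488.4, and in KO cell 3, under the floor at 34.5. The KO cells in which it was detected were thus the pair in which probe 1 was not, and by either probe Sar1a was detected in all 8 cells. The difference between genotypes was -2.51 on probe 1 and -0.16 on this probe.

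Sar1b, the paralogue needed for export of large lipoproteins in the intestine (plus strand of chr11:51605100-51605159), was read in both genotypes. It was at 50, 50, 762.9 and 1119.2 in WT, and at 4297.8, 50, 572.8 and 200.6 in KO cells. It was detected in 2 WT and 3 KO cells, so that only KO cell 2 lacked it among the KO cells. The difference of 0.88 had the opposite sign to that of Sar1a. In KO cell 3, where Sar1a was under the floor on both probes, Sar1b was above it.

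In the inner coat, the Sec23 genes, which encode the GTPase-activating subunit, were at the floor in most cells. Sec23a (minus strand of chr12:60060275-60060334) was detected in WT cell 1, at 100.4, and in WT cell 3, at 51.4, and in 0 of 4 KO cells. With the floor set, the mean over all 4 WT cells was 1.2-fold above that of KO cells. The other WT cells were at the floor as well, so this fold is not a lower bound. Its paralogue Sec23b (plus strand of chr2:144416111-144416170) was detected in 4 WT and 3 KO cells but was above the floor in 1 cell of each genotype, WT cell 4 at 375.4 and KO cell 3 at 4209.1. Its difference of 0.87 thus came from a single cell in each genotype.

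The Sec24 genes, which encode the cargo-binding subunit and divide into Sec24a with Sec24b and Sec24c with Sec24d, were bright in some cells and at the floor in others. Sec24c (plus strand of chr14:21513978-21514037) was the 1 member probe detected in all 8 cells. It read 50, 13246.3, 1831.3 and 125.3 in WT, and 50, 50, 3522.2 and 50 in KO cells. KO cell 3 lay above 3 of the WT cells and the other KO cells were at the floor together with WT cell 1. On the log2 scale WT cells averaged 9.29 ± 3.67 and KO cells 7.18 ± 3.07, a difference of -2.11 against a pooled SD of 3.38.

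Sec24b (minus strand of chr3:129686171-129686230) was the member with the largest difference upwards in KO cells, 2.03 on the log2 scale. It read 308.7 in WT cell 4 and 50 in the other WT cells, and 883.9, 4908.9, 50 and 50 in KO cells. It was detected in 3 WT and 2 KO cells, and its brightest cells were KO cells 1 and 2. Sec24d (plus strand of chr3:123068106-123068165) was detected in 1 cell of each genotype, WT cell 1 at 385.0 and KO cell 1 at 1408.2. The 3 probes of Sec24a were at the floor in all 8 cells. One of them was detected in WT cell 1 and the other two, at chr11:51506202-51506261 and chr11:51547362-51547421, in 0 of 8 cells. No level of Sec24a can be given from these arrays.

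The signal of the paralogues was spread over different cells in both genotypes. Beside Sec31a, Sec13 and Sar1a, which were above the floor in all 4 WT cells, WT cell 1 had signal for Sec23a and Sec24d, WT cell 2 for Sec24c, WT cell 3 for Sec23a, Sec24c and Sar1b, and WT cell 4 for Sec23b, Sec24b, Sec24c and Sar1b. WT cell 2 thus had no Sec23 gene above the floor, and WT cells 1 and 2 had no Sar1b. KO cell 1 had signal above the floor for Sec13, Sar1a, Sar1b, Sec24b and Sec24d. KO cell 2 had it for Sec13, Sar1a and Sec24b, KO cell 3 for Sar1b, Sec23b and Sec24c, and KO cell 4 for Sec13, Sar1b and, on probe 2, Sar1a. Each KO cell therefore had signal for at least 1 Sar1 gene, and KO cell 3 was the only one with a Sec23 gene above the floor. KO cell 4 had no Sec24 gene above the floor. Whether cells without signal lacked the transcript or lost it in amplification was not tested.

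Over the whole group, the mean number of genes detected was higher in WT cells, and the counts overlapped. WT cells had 8, 6, 8 and 7 of the 10 genes detected on any probe, and KO cells had 7, 4, 4 and 6. WT cells averaged 7.25 ± 0.957 genes and KO cells 5.25 ± 1.5 (SD between cells, n = 4 for both), and KO cell 1 equalled or exceeded WT cells 2 and 4. Sec31a, detected in 4 WT cells and KO cell 4, was picked for its loss in KO cells, so its part in this difference was set by that choice. Leaving out Sec31a, an alternative chosen after the values were seen, gave 6.25 ± 0.957 and 5.0 ± 1.414. The share of all probes on the array that was detected moved in the same direction, from 22.8% ± 2.83 in WT to 19.7% ± 3.38 in KO cells. KO cells 2 and 3, which had the fewest coat genes, also had the lowest shares of all probes, 17.2% and 17.1%. The part of array-wide detection in the lower counts was not tested.

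**Figure D2:**
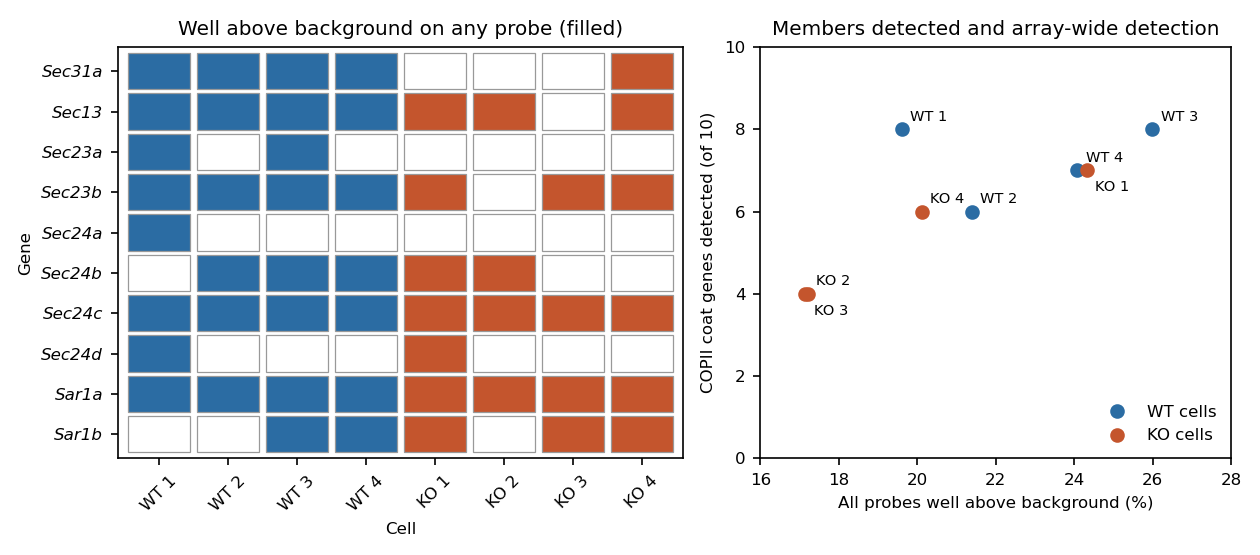
Left, the 10 COPII coat genes by cell, filled where any probe of the gene was well above background; right, number of these genes detected (of 10) against the percentage of all probes well above background, 1 point per cell. Sec31a is filled in 4 WT cells and KO cell 4, Sar1a and Sec24c in all 8 cells, and KO cells 2 and 3 are lowest on both axes of the right panel, at 4 genes and about 17.1% to 17.2%.

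A rule of size was applied to probes called present, meaning that every cell of WT, of KO or of both had detection. Of the 14 probes, 6 were present, from 5 genes, and 3 of them were at least 5-fold lower in KO cells (2.32 on the log2 scale), both Sec31a probes and Sar1a probe 1. Among all 7467 present probes, 6.88% were at least 5-fold lower. Because Sec31a was selected on this contrast, the share among members is not read against that background. Leaving Sec31a out, 1 of 4 present probes was lower. That probe, Sar1a probe 1, was present through WT cells alone, where its mean was higher, so nothing is read from this count. Sar1a probe 1, at 5.69-fold, lay just past the rule, and Sec24c, at 4.31-fold, just short of it. At least 5-fold higher were 0 member probes, against 1.75% of all present probes. Every KO cell lay under every WT cell for 1 of the 6 present member probes, Sec31a probe 1, and for 2.26% of all present probes. That probe is the one the group was selected on, so nothing is read from this share either. For 0 of the 12 probes of the other genes did the difference between genotypes exceed the pooled SD between cells. The same share over all probes was not taken, so this count has no background. The Sec24a probes, at the floor throughout, could not exceed their pooled SD.

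The coat genes differed in both directions. Over the 7 members detected in at least 4 cells, by the brightest probe of each gene, 4 were lower and 3 higher in KO cells with a median difference of -1.10. A filter of this kind keeps a gene that is bright in a single genotype, so that it must differ. Without Sec31a 3 were lower and 3 higher, with a median of -0.11. Over all 5372 genes that passed the same filter, 2519 (46.9%) were lower and 2340 higher, with a median of 0.0 and a mean of -0.31.

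The other genes of the early secretory pathway were read from 8 lists. By the brightest probe of each gene, 0 of the genes measured were detected in 4 cells of 1 genotype and 0 cells of the other. Of all 5372 genes measured, 39 were detected in 4 WT and 0 KO cells and 2 in 0 WT and 4 KO cells. The pattern was thus rare on the whole array, and nothing is read from its absence in these lists. Among all 3378 genes present by their brightest probe, 10.8% were at least 5-fold lower in KO cells and 2.69% at least 5-fold higher. These shares, under the same rule, are the background for each list. A gene can be present through 1 genotype alone, where it is brighter, so counts past 5-fold are given as a description.

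Of 13 COPII regulators and ER exit site genes, 5 were measured in at least 4 cells, with 4 lower, 1 higher and a median difference of -0.47. None of the 3 present genes passed 5-fold (0 lower and 0 higher). Pdcd6, a calcium-binding protein that attaches to Sec31a, read 2796.4, 50, 465.3 and 481.8 in WT and 50, 2645.4, 1490.9 and 2514.6 in KO cells, a difference of 0.996. Its partner Pef1, with which it directs the ubiquitin ligase of Cul3 to Sec31a, differed by -1.33 and on its other probe by -2.22. Cul3 itself differed by -0.38. The genotypes overlapped for all 3 by their brightest probes. Mia3, the exit site receptor for collagens, is named here after its values were seen. It was not present by the rule, and its log2 mean was 9.97 ± 2.92 in WT cells, with 3 detected, and 5.64 in KO cells, all at the floor with 1 detected.

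Of 21 cargo receptors and related membrane proteins that cycle between ER and Golgi, 13 were measured, 9 lower and 4 higher, with a median of -0.46. Of 7 present genes, 1 was at least 5-fold lower and 1 at least 5-fold higher. The lower was Yipf5, a membrane protein of ER exit sites and the early Golgi. It read 672.2, 5300.4, 2082.4 and 2283.1 in WT and 50, 50, 160.1 and 50 in KO cells. All KO cells lay under all WT cells, as for 2.26% of present probes. The log2 means were 10.99 ± 1.22 and 6.06 ± 0.84, and the difference was -4.92. This probe was detected in 4 WT and 3 KO cells, so it was present through WT cells alone. The other Yipf5 probe, detected in 4 WT and 1 KO cells, differed by -3.97. Yif1a, which forms a complex with Yipf5 and is named after its values were seen, had detection in 3 WT and 1 KO cells and differed by -3.90, with SDs of 3.42 and 2.42.

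The higher gene of that list was Cnih1, a receptor for growth factor precursors. It read 50, 163.5, 6934.4 and 2598.8 in WT and 3101.5, 15124.0, 569.8 and 4024.8 in KO cells, a difference of 2.38. The genotypes overlapped, since KO cell 3 lay under WT cells 3 and 4. Ergic3, a receptor that recycles with the vesicles, differed by 1.98.

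The COPI coat, which returns proteins from the Golgi to the ER, had 10 of 16 genes measured with its ARF GTPases, 7 lower, 2 higher and 1 equal at the floor, with a median of -0.33. Of 6 present genes, 0 passed 5-fold in either direction. The coat subunits Copb2 and Copz1 differed in opposite directions, by -2.17 and 2.14. The GTPase Arf5 differed by -1.76, and its other probe, detected in 3 WT and 3 KO cells, by -3.03. Of 20 tethers and SNAREs, which dock and fuse the vesicles, 11 were measured, 7 lower and 4 higher, with a median of -0.53 and 0 of 3 present genes past 5-fold. Trappc6b, a subunit of the TRAPP tether, differed by -1.79, the GTPase Rab1b by -1.72 and the SNARE Ykt6 by 0.05.

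Upstream of COPII, 17 of 22 genes of protein entry into the ER were measured, 11 lower and 6 higher, with a median of -0.71. Of 9 present genes, 3 were at least 5-fold lower and 0 higher. Spcs1, a subunit of signal peptidase, read 50, 4894.2, 6087.9 and 862.9 in WT and 50, 1406.8, 50 and 50 in KO cells. Srp14, of the signal recognition particle, was at the floor in WT cell 3 and in KO cells 1, 2 and 3, and differed by -2.94. Sec61g, a subunit of the translocon, was detected in all 8 cells and differed by -2.72, through KO cells 2 and 3, at 275.0 and 50, while KO cells 1 and 4 read 17014.0 and 14982.5. In each of these 3 genes at least 1 KO cell lay within or above the WT range. Spcs1 and Srp14 were present through WT cells alone, so nothing is read from the count of 3.

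Of 24 ER chaperones and stress response genes, 10 were measured, 4 lower and 6 higher, with a median of 0.13 and 0 of 8 present genes past 5-fold. Calr and Hspa5, the chaperones calreticulin and BiP, differed by -1.33 and -1.31. Each of these differences came from 1 KO cell at 50, KO cell 3 for Calr and KO cell 1 for Hspa5, while the lowest of the other KO cells read 2319.8 and 3026.1. The disulfide isomerase Pdia6 differed by -1.08, and its other probe, detected in 2 WT and 0 KO cells, by -2.96.

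Sec13 also has partners outside COPII. Of 11 genes of the nuclear pore scaffold and GATOR2, 3 were measured, and 2 of these 3 were at least 5-fold lower. Nup85 read 103.5, 3598.0, 1843.9 and 1613.7 in WT and 50, 50, 1703.8 and 60.6 in KO cells, a difference of -3.02. Nup107 differed by -2.58. Seh1l, which also serves GATOR2, differed by 1.67 and on its other probe by 0.83, so these differences were not all of 1 sign. Nup85 was present through WT cells alone and Nup107 through KO cells alone. A median of 3 genes, here -2.58, is set by a single gene.

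Among the cargo, 10 of 14 genes of the matrix and secreted proteins of the heart were measured, 4 lower, 5 higher and 1 equal, with a median of 0.16. Of 4 present genes, 2 were at least 5-fold higher and 0 lower. Sparc, a collagen-binding matrix protein, read 2783.7, 4203.7, 2938.2 and 50 in WT and 22008.4, 9697.8, 11246.3 and 2446.5 in KO cells, a difference of 2.94. KO cell 4 lay under WT cells 1, 2 and 3. Its other probes differed by 0.85 and -0.10. Vcan, the proteoglycan versican of the cardiac jelly, differed by 2.46, and its other probes by 0.00 and -0.05. The atrial hormone precursor Nppa was bright in all 8 cells, at 13174.9 to 259324.8 in WT and 73586.3 to 92228.8 in KO cells, and differed by 0.88.

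**Figure D3:**
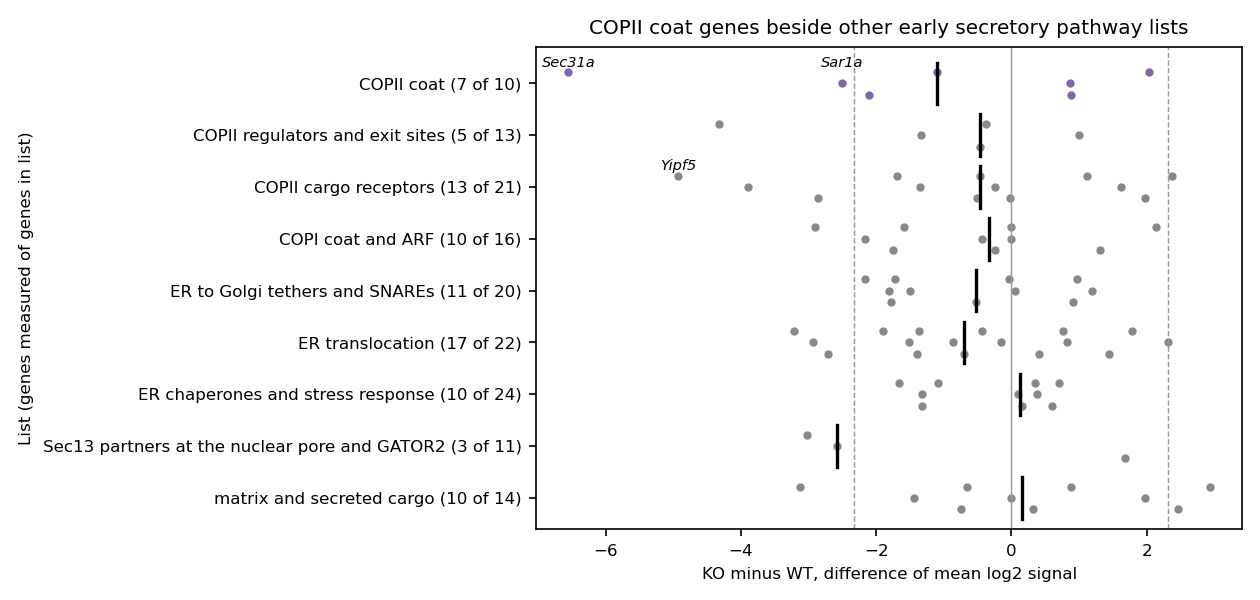
Difference of mean log2 signal, KO minus WT, for each gene detected in at least 4 of the 8 cells, by list, with the list's median as a black bar and 5-fold marked by dashed lines. Sec31a, at -6.55, lies farthest from 0 of all genes drawn, but it was selected on this contrast, so nothing is read from its place. The other COPII coat genes spread on both sides of 0, from -2.51 to 2.03.

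The likeness of other transcripts to Sec31a was taken as Pearson's r of the log2 signal with Sec31a probe 1 over the 8 cells, which share their 2 slides and their amplification. Within the coat, r was 0.772 for the other Sec31a probe, 0.481 for Sar1a probe 1, 0.43 for Sec23a, 0.398 for Sec24c and 0.396 for Sec13. It was -0.064 for Sar1a probe 2, -0.109 for Sec24d, -0.256 for Sec23b, -0.283 for Sar1b and -0.471 for Sec24b. No r exists for Sec24a, whose probes were at the floor in all 8 cells.

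The highest values over all present probes with a gene name were those of Slc25a13, a mitochondrial aspartate-glutamate carrier (0.994), and Tmem165, a Golgi ion transporter (0.992). Mybl2, a cell cycle transcription factor (0.991), Mcm3, a subunit of the replicative helicase (0.990), and Snapc4, a factor of small nuclear RNA transcription (0.988), came next. Slc25a13 read 5613.9, 8745.3, 2098.5 and 1383.7 in WT and 50 in each KO cell. Tmem165 read 1876.7, 3769.3, 1154.1 and 1334.9 in WT cells and 50 in each KO cell. Mybl2, Mcm3 and Snapc4 were detected in 4 WT cells and 1 KO cell each. In WT cell 2, Sec31a, Slc25a13, Tmem165, Mybl2 and Mcm3 each had their highest signal, and Snapc4 had its own in WT cell 1. An r over cells that fall into a bright and a floored set is carried by that split, and it is given as a description.

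**Figure D4:**
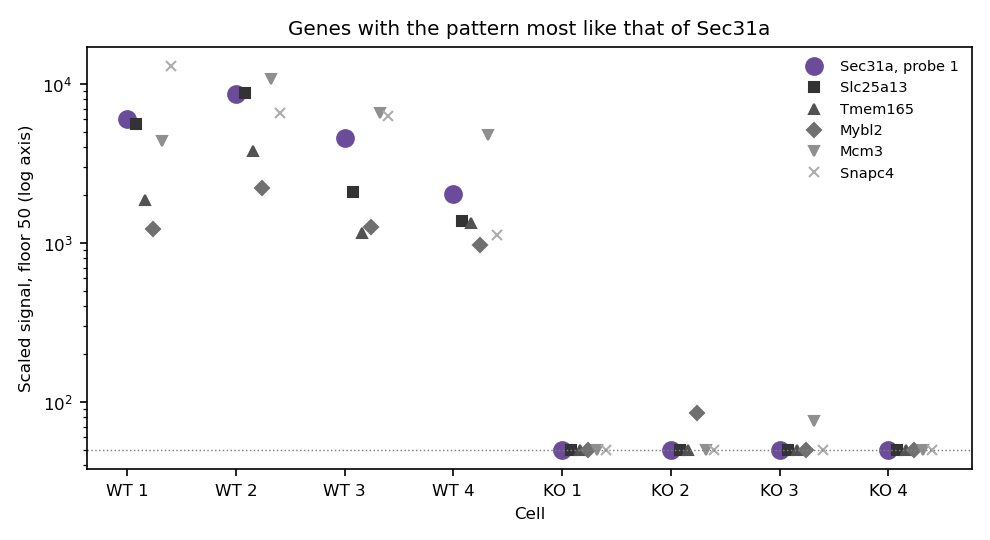
Scaled signal (log axis, floor of 50 as a dotted line) of Sec31a probe 1 and of the 5 genes whose log2 signal correlated best with it over the 8 cells, by cell, with points of a cell set side by side. All 6 are between 969.0 and 12955.2 in WT cells and at or near the floor in KO cells, the highest KO value being 84.9 for Mybl2 in KO cell 2.

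For scale, the spots of probes printed at least 10 times on an array had a median SD of 0.068 on the log2 scale, and the median SD between cells over present probes was 0.738 in WT and 0.709 in KO. The spread between cells of Sec24c, Sar1a and Sec13 in KO was larger than both. Each value of a coat probe came from 1 cell, and the number of arrays limits the precision.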

How the data were processed

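The deposited files were scanner output of Agilent Feature Extraction 12.0.2.2, 1 per array. Their intensity values on a linear scale were as deposited, with the background correction and flags of the software. The flags used were those for signal well above background and for outlier spots, with that for positive and significant signal as an alternative. The study set levels under 50 to 50 and scaled chips on their 50th percentile. Here control and outlier spots (146 to 220 per array) were left out, no spot was saturated (0), and log2 signals of a probe's spots were averaged. Arrays were scaled over the 5301 probes detected in all 8 cells, by -0.757 to 0.68, and floored at 50. Lists used the probe of highest mean signal per gene. Work was done in Python 3.11.15 with pandas 2.3.3, with limma 3.58.1 for normexp. The members and lists were chosen with earlier results of these data known. Named by rule were all members, up to 3 present genes per list with the largest difference, any gene detected in 4 cells of 1 genotype and 0 of the other, and the 5 genes most like Sec31a. Outside these rules, Sec31b was named as the paralogue of Sec31a. Mia3 and Yif1a, both lower in KO cells, were added after their values were seen, and that choice was not balanced by genes higher in KO cells. The alternatives were another background correction, scaling, floor, filter, probe choice and fold, and each cell left out. The scripts were tested on simulated data.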

Additional observations from a re-analysis of the deposited data

Results flagged for a closer look

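The gap between the highest or lowest cell and the next cell of its genotype was compared with the range of that genotype for 14 probes in both genotypes, 28 groups in all, of which 9 were at the floor throughout. In 11 of the other 19 groups the gap passed Dixon's limit for 4 cells, which chance passes in about 1 in 20 groups. A group with a single cell above the floor passes it by construction, since the floored cells are tied. Such single cells were WT cell 4 for Sec23b (375.4), Sec24b (308.7) and Sar1a probe 2 (757.0), WT cell 1 for Sec24d (385.0), KO cell 1 for Sec24d (1408.2), KO cell 3 for Sec23b (4209.1) and Sec24c (3522.2), and KO cell 4 for Sar1a probe 2 (488.4). For Sec23a, WT cell 1 was at 100.4 with WT cell 3 next at 51.4. The low cells were WT cell 3 for Sec31a probe 2, at 50, and for Sar1a probe 1, at 908.4.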

How the results depend on the processing

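No paired analysis was possible because a replicate number here ties no WT cell to a KO cell, and no value was tested. Of 255 values of the main results under an alternative, 229 stayed within the SD between cells (for counts, within 1.5 times) and 26 did not. The sign turned in 16, 4 of them among the 26, and all of these were list medians: those of the coat, cargo receptors, COPI, chaperones, Sec13 partners and matrix cargo. The cargo receptor median of -0.46 was 0.174 with no floor, and the chaperone median of 0.13 was -0.044 with the percentile over all probes and -0.085 with medians of cells. The Sec31a difference of -6.55 was -11.13 with no floor and -4.81 as the mean of all its probes, and -6.96 to -6.26 when single cells were dropped. A detection filter does not enter this difference, and dropping a KO cell cannot move it, since all KO cells were at the floor. Part of the 229 values thus stayed by construction. The 3 member probes at least 5-fold lower became 0 when detection in all 8 cells was required, a filter that removes both Sec31a probes, 5 at 2-fold, 1 at 10-fold, 1 without Sec31a, and 2 to 4 when single cells were dropped. The number at least 5-fold higher was 0 throughout. The coat median of -1.10 was -2.14 with no floor, -0.131 with no filter, -2.11 for the 1 gene detected in all 8 cells, Sec24c, and -0.114 without Sec31a. Dropping single cells gave -1.60 to 0.24, the latter without WT cell 4, and -0.121 without WT cell 3. The filter stayed at 4 cells, so dropping any WT cell also took Sec31a, detected in 4 WT and 0 KO cells, out of this median. The values without a WT cell are therefore medians without Sec31a. In the other lists, too, dropping a cell could take out genes detected in just 4 cells. The regulator median was -2.06 with no floor. The COPI median was -1.10 with medians of cells. Over genes detected in all 8 cells the medians were -1.33 for regulators, 1.98 for cargo receptors, -1.59 for COPI, -1.72 for tethers, 1.67 for Sec13 partners, where the sign turned because Seh1l alone remained, and 1.67 for matrix cargo. Dropping single cells gave medians from -0.84 to -0.11 for regulators, -1.24 to 0.62 for cargo receptors (0.62 without WT cell 4), -1.03 (without KO cell 1) to 0.12 for COPI, -1.65 (without WT cell 2) to -0.11 for tethers, -1.26 to -0.15 for ER translocation, -0.54 to 0.33 for chaperones, -4.12 to -1.75 for Sec13 partners and -0.24 to 0.55 for matrix cargo. The difference of -2.0 in genes detected per cell became -2.58 to -1.58 when single cells were dropped. It was -1.25 without Sec31a, -1.25 with detection by the flag for positive and significant signal, and -2.0 with detection by signal above the floor. Where no construction is named, the cause was not tested.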
